A study of Mus musculus with 4 samples.

Results

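The genes described here belong to the hypoxia-inducible factor (HIF) pathway: the factor's subunits Hif1a, Epas1 and Arnt, the von Hippel-Lindau gene Vhl, the oxygen-sensing prolyl hydroxylases Egln1, Egln2 and Egln3, and the hypoxia-responsive genes P4ha1, Bnip3 and Adm. They were taken by name from the count table, as 10 of its 55487 genes, and all 10 were among the 13496 genes with enough counts to be tested. RNA came from myeloid cells of mouse liver, and 2 libraries were made from each of the genotypes LysM-Cre IL10R fl/fl and LysM-Cre IL10R wt/wt. In fl/fl mice the interleukin-10 receptor gene is flanked by loxP sites, and in wt/wt mice it is unmodified. Both genotypes carry LysM-Cre, a Cre recombinase expressed from the gene of lysozyme M, whose activity spans the macrophage, monocyte and granulocyte lineages. The cells were sorted as CD45 and CD11b positive and CD3 and CD11c negative, a gate that admits all of these lineages. The labels give no treatment, age or sex, and do not say whether libraries of a genotype came from separate animals, so the p-values measure only the spread between these samples.

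HIF is a pair of an alpha subunit, HIF-1 alpha (Hif1a) or HIF-2 alpha (Epas1), and the constant partner ARNT. In the presence of oxygen the EGLN enzymes hydroxylate prolines of the alpha subunit, VHL binds the hydroxylated protein as part of a ubiquitin ligase, and the protein is degraded; when oxygen is scarce the alpha subunit persists and the pair activates genes at sites with the core ACGTG or GCGTG. The alpha subunits are therefore controlled largely as proteins, which transcript counts do not measure. In macrophages, HIF-1 alpha is known for its part in glycolysis and inflammatory gene expression, and Egln3 is itself a classical HIF target.

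The promoter sequences of 5 of these genes are shown because the genes differ in how their transcripts compared between the genotypes: P4ha1, Bnip3, Egln3 and Egln1 were lower in fl/fl, and Egln2 was not. Each window covers 250 bases before and 50 bases from the start site on, in the direction of the gene, from RefSeq on GRCm38.p6. Capitals mark ACGTG or GCGTG, on either strand, so that CACGT and CACGC are the same motifs read from the opposite strand; where ACGTG overlaps its own reverse complement, the capitals read CACGTG and count as a match on each strand.
P4ha1, chr10:59323046-59323345, plus strand: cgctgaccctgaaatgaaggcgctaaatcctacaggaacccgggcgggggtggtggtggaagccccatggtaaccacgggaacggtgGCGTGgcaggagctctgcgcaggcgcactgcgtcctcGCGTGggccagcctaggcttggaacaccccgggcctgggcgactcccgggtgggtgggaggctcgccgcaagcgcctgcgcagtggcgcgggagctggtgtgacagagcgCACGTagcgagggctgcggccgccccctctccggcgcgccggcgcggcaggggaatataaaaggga
Bnip3, chr7:138909457-138909756, minus strand: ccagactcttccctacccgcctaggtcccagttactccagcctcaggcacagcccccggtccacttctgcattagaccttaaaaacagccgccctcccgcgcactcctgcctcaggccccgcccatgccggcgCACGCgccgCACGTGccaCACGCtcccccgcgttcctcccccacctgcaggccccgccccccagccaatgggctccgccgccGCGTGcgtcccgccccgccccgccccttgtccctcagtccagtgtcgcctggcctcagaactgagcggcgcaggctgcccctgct
Egln3, chr12:54203825-54204124, minus strand: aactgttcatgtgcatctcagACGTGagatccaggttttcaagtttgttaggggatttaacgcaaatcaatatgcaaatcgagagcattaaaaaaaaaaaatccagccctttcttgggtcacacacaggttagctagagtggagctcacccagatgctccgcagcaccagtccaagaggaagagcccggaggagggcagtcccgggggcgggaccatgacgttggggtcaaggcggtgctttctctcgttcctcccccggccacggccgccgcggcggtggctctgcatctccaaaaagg
Egln1, chr8:124949205-124949504, minus strand: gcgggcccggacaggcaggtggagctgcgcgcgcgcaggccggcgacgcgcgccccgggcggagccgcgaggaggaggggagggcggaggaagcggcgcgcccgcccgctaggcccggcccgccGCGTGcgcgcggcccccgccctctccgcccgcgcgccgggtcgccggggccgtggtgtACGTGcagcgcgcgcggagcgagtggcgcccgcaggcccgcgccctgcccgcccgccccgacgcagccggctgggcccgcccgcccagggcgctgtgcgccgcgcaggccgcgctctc
Egln2, chr7:27166753-27167052, minus strand: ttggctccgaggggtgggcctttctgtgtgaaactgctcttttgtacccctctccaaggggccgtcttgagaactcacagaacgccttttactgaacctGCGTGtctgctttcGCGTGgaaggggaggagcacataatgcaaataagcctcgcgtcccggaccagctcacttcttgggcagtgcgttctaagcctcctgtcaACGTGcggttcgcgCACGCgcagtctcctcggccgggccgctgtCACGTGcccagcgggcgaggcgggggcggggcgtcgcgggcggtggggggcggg

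These windows held 3 matches for P4ha1, 5 for Bnip3, 1 for Egln3, 2 for Egln1 and 6 for Egln2. RefSeq windows were found for 9 of the 10 genes, 10 windows in all since Egln2 has a second start. Either motif was present in 9 of the 10 windows, against 43.8% of all 32851 windows and 60.5% of the 12339 windows of tested genes. The letters ACGTG or their reverse complement were present in 6 of the 10, against 19.6% of all windows and 25.4% of those of tested genes. The Vhl window held neither motif. The G and C content of these windows lay at a mean of 64.4%, against 60.2% over windows of tested genes and 53.8% over all windows. The presence of a motif did not separate genes that passed the test from genes that did not, since the windows of Egln2, Arnt and Adm held matches too. A match is a description of letters, not of binding.

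Total counts were 17750343 and 17154042 in fl/fl libraries 1 and 2 and 22694136 and 26441014 in wt/wt libraries 1 and 2. Il10ra, the ligand-binding chain of the receptor, held 69.3 and 14.8 CPM (counts scaled to a common depth by the TMM-adjusted library size) in fl/fl, against 1111 and 993 CPM in wt/wt. Xist, which marks female cells, was counted 4298 times in fl/fl 2 and not at all in the remaining libraries, so the fl/fl pair mixed the sexes. The gate's markers Ptprc (CD45) and Itgam (CD11b) lay at 368 to 1580 CPM in all libraries and the T cell gene Cd3e at 0 to 2 counts. Of the Itgam exon length, 68.7% is shared with other annotation on the same strand, and how such reads were counted is not given. Itgax (CD11c), a marker the gate selects against, held 24.6 and 47.1 CPM in fl/fl against 158 and 134 CPM in wt/wt. Cell type markers differed with genotype: 8 of 9 granulocyte precursor markers rose, at a summed level of 7047 and 2946 CPM in fl/fl against 501 and 531 CPM in wt/wt, and 8 of 10 neutrophil markers rose, at 31822 and 14750 CPM against 2745 and 3501 CPM. Ngp and Prtn3 were the most abundant precursor markers and S100a9 and S100a8 the most abundant neutrophil markers. Of 8 tested macrophage and Kupffer cell markers, led by Csf1r and Cd68, 3 fell (C1qa, C1qb and C1qc) and 5 did not pass; the 12 listed sum to 1355 and 1582 CPM in fl/fl against 2928 and 2829 CPM in wt/wt. No marker on these 3 lists was at 0 in all libraries. In edgeR at an adjusted p under 0.05, 2.69% of all tested genes were higher and 3.16% were lower. Of the other lists, 1 of 7 classical monocyte, 1 of 3 T and NK cell and 1 of 5 basophil and mast cell markers tested rose; 0 passed among 5 dendritic cell, 2 B cell, 4 erythroid, 6 hepatocyte, 5 endothelial and 3 stellate cell and fibroblast markers in edgeR. In such bulk samples fewer cells of a type and less RNA per cell cannot be told apart, and the part of these marker differences in the results on HIF pathway genes was not tested.

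Of the 10 HIF pathway genes, 6 fell in fl/fl, 0 rose and 4 did not pass; at an unadjusted p under 0.05, which 22.5% of all tested genes reached in either direction, the numbers were the same. By the same edgeR quasi-likelihood test at a Benjamini-Hochberg adjusted p under 0.05, 3.16% of all tested genes were lower, 2.69% were higher and 5.85% passed in either direction. The genes that fell were Egln3, Bnip3, P4ha1, Egln1, Hif1a and Vhl, and those that did not pass were Adm, Epas1, Arnt and Egln2. The median log2 fold change (fl/fl over wt/wt) was −1.17 over the 10 genes and 0.02 over all tested genes. Both fl/fl libraries lay below both wt/wt libraries for 8 of the 10 genes, against 26.3% of tested genes, and above them for 1, Egln2, against 28.1%. The libraries overlapped for Epas1 alone. In CPM, all 10 genes were lower in fl/fl 2 than in fl/fl 1, which was the case for 50.1% of tested genes. By their summed levels, the granulocyte precursor, neutrophil and classical monocyte markers were also lower in fl/fl 2 than in fl/fl 1. So were those of T and NK cells, basophils and mast cells, endothelial cells, and stellate cells and fibroblasts. The summed macrophage and Kupffer cell markers were higher in fl/fl 2, as were those of dendritic cells, B cells, erythroid cells and hepatocytes. Among the tested macrophage markers, Csf1r (817 and 1179 CPM in fl/fl 1 and 2), Adgre1 and Cd5l were higher in fl/fl 2. In contrast, C1qa (41.1 and 12.3 CPM), C1qb, C1qc, Cd68 and Mertk were lower in fl/fl 2.

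**Figure D1:**
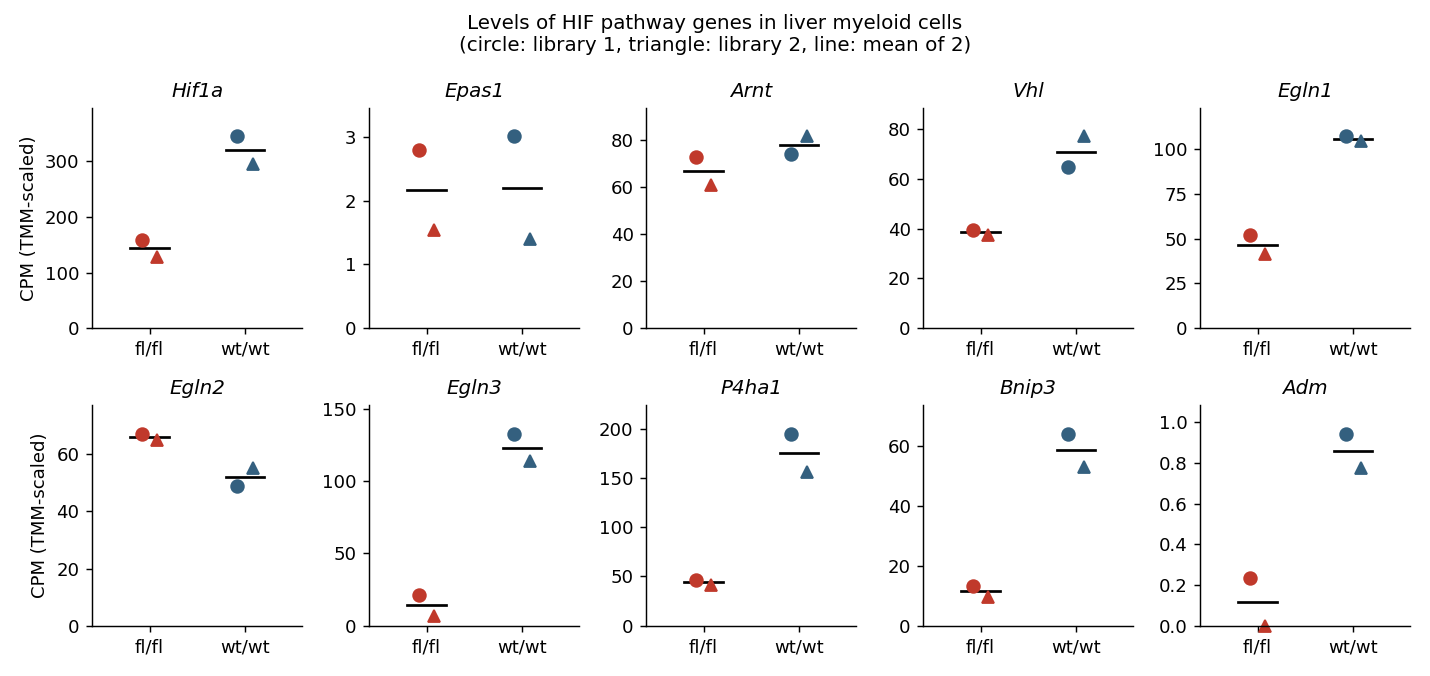
Levels of the 10 HIF pathway genes in CPM (vertical axes, each from 0), with fl/fl libraries in red and wt/wt libraries in blue; circles are library 1, triangles library 2 and lines the mean of 2. For Egln3 the fl/fl libraries stood at 21 and 6.91 CPM and the wt/wt libraries at 133 and 114 CPM, while the genotypes overlapped for Epas1.

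Per length, in TPM (counts corrected for exon length and depth), the order of the 10 genes differed between the genotypes. In fl/fl, Hif1a led with 67.8 and 61.8 TPM and overlapped with Egln2, at 60.6 and 65.5 TPM. Egln1 and Vhl followed at 32.6 to 36.5 TPM and overlapped with each other, and then P4ha1 and Arnt at 28.7 and 28.6 and at 23.0 and 21.6 TPM. Egln3 overlapped with Bnip3, which had 14.8 and 12.0 TPM. In wt/wt, Hif1a again led, with 170 and 154 TPM, followed by Egln3 and P4ha1, which overlapped at 117 to 145 TPM. Egln1 had 86.5 and 89.3 TPM, Bnip3 and Vhl overlapped at 62.8 to 82.1 TPM, and Egln2 and Arnt came after them. Epas1, at 0.771 to 1.56 TPM over the 4 libraries, and Adm were the lowest of the 10 in both genotypes. Unlike in CPM, not all 10 genes were lower in fl/fl 2 than in fl/fl 1 in TPM. Egln2 and Vhl (33.3 TPM in fl/fl 1 and 35.4 TPM in fl/fl 2) were higher in fl/fl 2, and the rest were lower.

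Among the HIF subunits, the main alpha subunit fell and the other subunits did not pass. Hif1a (ENSMUSG00000021109; GRCm38 chr12:73901375-73947530, plus strand) held 158 and 129 CPM in fl/fl, against 345 and 296 CPM in wt/wt. The higher fl/fl library was thus well below the lower wt/wt library. The means were 143 ± 20.6 CPM in fl/fl and 320 ± 34.8 CPM in wt/wt (SD, n = 2 each), a 2.23-fold lower level at a log2 fold change of −1.16 ± 0.18 (SE; adjusted p = 0.0215, edgeR). A stretch of 5.60% of the Hif1a exons is shared with the antisense gene Gm15283, which had 18 and 8 counts in fl/fl and 123 and 85 counts in wt/wt. Without a stated strand setting, reads of the shared stretch cannot be told apart. On the same strand, 2.51% of the Hif1a exon length is shared with other annotation, and how such reads were counted is not given.

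Epas1 (ENSMUSG00000024140; chr17:86753700-86833410, plus strand), the HIF-2 alpha gene, which is abundant in endothelial cells, was scarce in both genotypes. It held 2.80 and 1.54 CPM in fl/fl, from 48 and 27 counts, against 3.01 and 1.4 CPM in wt/wt, from 67 and 38 counts. Within each genotype library 1 was the higher, and the pairs overlapped. The log2 fold change of Epas1 was −0.02, with a 95% interval of −1.43 to 1.39, so that differences of either sign up to this size were not detectable at this depth. The endothelial markers of the same libraries summed to 18.1 and 16.9 CPM in fl/fl and 19.3 and 14.9 CPM in wt/wt. Per length, Hif1a made up 98.2% and 98.8% of the summed Hif1a and Epas1 level in the fl/fl libraries, against 99.1% and 99.5% in the wt/wt libraries.

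Arnt (ENSMUSG00000015522; chr3:95434388-95497240, plus strand), the constant partner, held 73.0 and 61.1 CPM in fl/fl, against 74.1 and 81.6 CPM in wt/wt. The genotypes were separate by a narrow margin. The Arnt log2 fold change was −0.22, with a 95% interval of −0.62 to 0.19 (adjusted p = 0.519, edgeR). The whole of this interval lies above that of Hif1a, −1.59 to −0.73; the difference between these genes' fold changes was not tested.

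Vhl (ENSMUSG00000033933; chr6:113623959-113631633, plus strand) encodes the protein that recognises hydroxylated HIF alpha. It held 39.5 and 37.5 CPM in fl/fl, against 64.8 and 77.1 CPM in wt/wt. The fl/fl libraries were close together and both below wt/wt. Vhl was 1.84-fold lower (log2 fold change −0.88 ± 0.17, SE; adjusted p = 0.0364, edgeR). Its annotated processed pseudogene, Vhl-ps1, had 0 counts in all 4 libraries, at a floor of up to 3 counts in a library. Per length, Hif1a stood at 2.03 and 1.75 times the Vhl level in fl/fl and at 2.71 and 1.95 times in wt/wt, so the ratio of these genes overlapped between the genotypes.

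**Figure D2:**
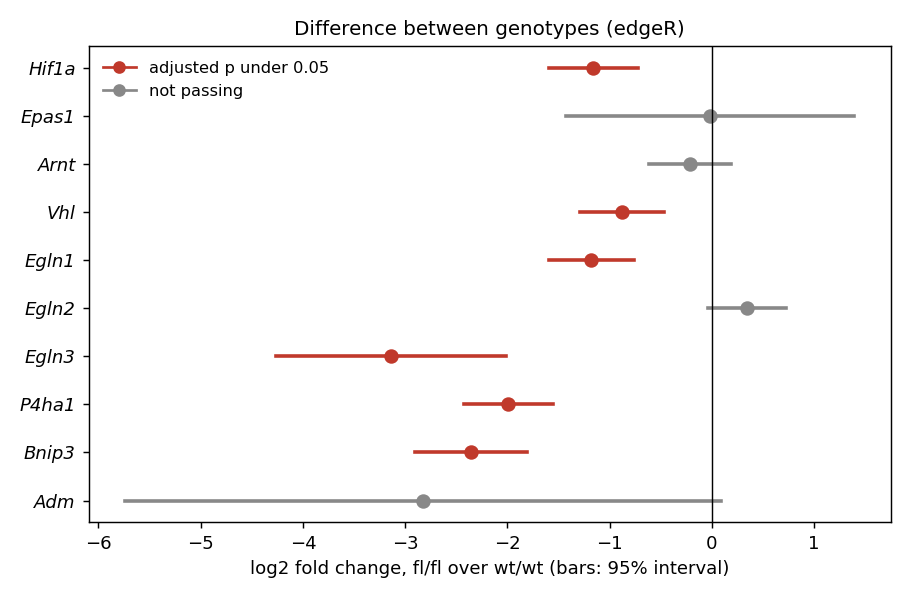
Log2 fold change of each HIF pathway gene, fl/fl over wt/wt (horizontal axis), with its 95% interval; red marks an adjusted p under 0.05 in edgeR and grey the other genes. The intervals of the 6 red genes lie below 0, and that of Egln2 runs from −0.04 to 0.73.

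The 3 prolyl hydroxylases did not move alike. Egln3 (ENSMUSG00000035105; chr12:54178981-54203860, minus strand), which encodes the hydroxylase PHD3, held 21 and 6.91 CPM in fl/fl, from 361 and 121 counts, against 133 and 114 CPM in wt/wt, from 2954 and 3084 counts. Both wt/wt values were several times the fl/fl values, and fl/fl 1 was about 3 times fl/fl 2. Egln3 was 8.82-fold lower, at a log2 fold change of −3.14 ± 0.47 (SE; adjusted p = 0.0197, edgeR), and 129 of the tested genes had a value this low or lower. Its size depended on both fl/fl libraries: leaving out fl/fl 1 put the log2 fold change of Egln3 at −4.19, and leaving out fl/fl 2 put it at −2.54.

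Egln1 (ENSMUSG00000031987; chr8:124908587-124949324, minus strand), which encodes PHD2, the main HIF hydroxylase in most cells, held 51.8 and 41.5 CPM in fl/fl, against 107 and 104 CPM in wt/wt. The wt/wt libraries nearly coincided and lay far above both fl/fl libraries. Egln1 was 2.26-fold lower (log2 fold change −1.18 ± 0.17, SE; adjusted p = 0.0193, edgeR). Its profile over the 4 libraries was the closest of any pair among the 10 genes to that of Hif1a, at a Euclidean distance of 0.135 between log2 CPM values centred on each gene's mean.

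Egln2 (ENSMUSG00000058709; chr7:27158658-27166802, minus strand), which encodes PHD1, was the only one of the 10 genes with a positive log2 fold change in edgeR. It held 67.1 and 64.8 CPM in fl/fl, against 48.9 and 55.2 CPM in wt/wt. The genotypes were separate, with fl/fl above. The log2 fold change of Egln2 was 0.34 ± 0.16 (SE), with a 95% interval of −0.04 to 0.73 (adjusted p = 0.276, edgeR). The intervals of Egln1, −1.59 to −0.76, and of Egln3, −4.27 to −2.01, lie wholly below that of Egln2.

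Because of these unequal differences, the makeup of the hydroxylase transcripts differed between the genotypes. Per length, the 3 genes summed to 117 and 105 TPM in fl/fl, against 282 and 281 TPM in wt/wt. Egln3 made up 17.1% and 6.96% of this sum in the fl/fl libraries, against 51.4% and 46.7% in the wt/wt libraries. For Egln2 the share was 51.8% and 62.1% in fl/fl libraries, against 18.0% and 21.6% in wt/wt libraries. Egln1 kept a like share, at 31.1% and 31.0% in fl/fl libraries, against 30.7% and 31.7% in wt/wt libraries. By level, Egln2 was thus the most abundant of the 3 in both fl/fl libraries, and Egln3 in both wt/wt libraries. In wt/wt the order was Egln3, Egln1 and Egln2, with 145 and 131, 86.5 and 89.3, and 50.7 and 60.7 TPM, and no neighbours overlapped. In fl/fl it was Egln2, Egln1 and Egln3, with 60.6 and 65.5, 36.5 and 32.6, and 19.96 and 7.335 TPM, again without overlap. The log2 ratio of Egln3 to Egln2 was −1.60 and −3.16 in the fl/fl libraries, against 1.51 and 1.11 in the wt/wt libraries. A two-sided exact permutation test of that ratio gave p = 0.333, the smallest p that 2 libraries against 2 allow, so it cannot pass. As plain ratios, Egln1 stood at 0.601 and 0.499 times Egln2 in the fl/fl libraries, against 1.70 and 1.47 times in the wt/wt libraries.

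**Figure D3:**
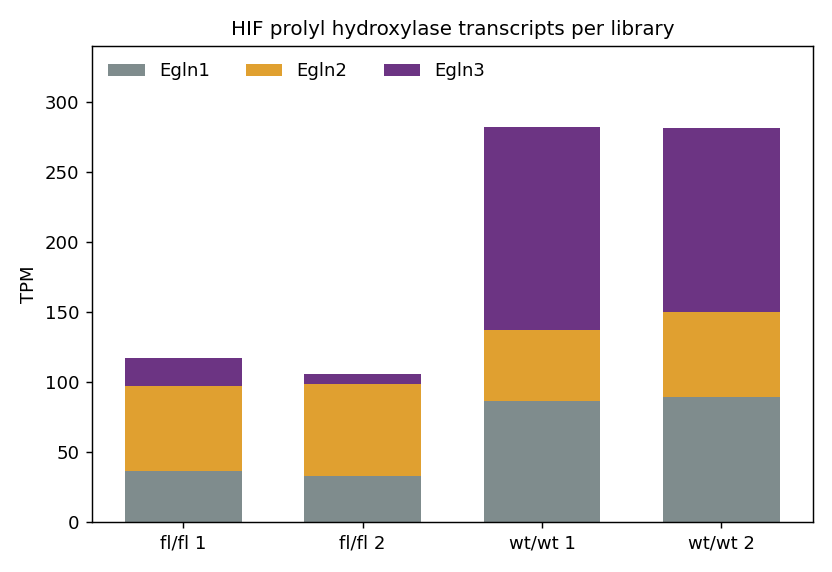
Stacked levels of Egln1, Egln2 and Egln3 in TPM (vertical axis) in each library, with the fl/fl libraries left of the wt/wt libraries. The summed height is 117 and 105 TPM in fl/fl and 282 and 281 TPM in wt/wt, and the Egln3 part is 19.96 and 7.335 TPM against 145 and 131 TPM.

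Of the hypoxia-responsive genes, P4ha1 and Bnip3 fell and Adm was too scarce to call. P4ha1 (ENSMUSG00000019916; chr10:59323296-59373304, plus strand) encodes a catalytic subunit of collagen prolyl 4-hydroxylase, an oxygen-dependent enzyme of the endoplasmic reticulum that acts on collagen rather than on HIF. It held 46.6 and 41.5 CPM in fl/fl, against 195 and 156 CPM in wt/wt. Within fl/fl the libraries were close. P4ha1 was 3.98-fold lower (log2 fold change −1.99 ± 0.18, SE, with an adjusted p of 0.00879 in edgeR) and had the 17th smallest p of all tested genes.

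Bnip3 (ENSMUSG00000078566; chr7:138890836-138909519, minus strand) encodes a mitochondrial membrane protein that promotes the removal of mitochondria by autophagy. It held 13.3 and 9.59 CPM in fl/fl, against 64.0 and 53.0 CPM in wt/wt. The genotypes were far apart relative to the spread within either. Bnip3 was 5.11-fold lower (log2 fold change −2.35 ± 0.23, SE, with an adjusted p of 0.00879 in edgeR). Of its exonic length, 22.3% is shared with Gm45507 on the opposite strand, which had 0 counts in all 4 libraries. Of the Gm45507 exon length, 97.1% is itself shared with opposite-strand annotation. Without a stated counting tool and strand setting, how reads of this stretch were counted is not known. The relative gene Bnip3l, another mitophagy receptor, was at a log2 fold change of 0.06 (adjusted p = 0.873, edgeR); it is named here after its values were seen.

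Adm (ENSMUSG00000030790; chr7:110627661-110629820, plus strand) encodes adrenomedullin, a secreted vasodilator peptide. It had 4 and 0 counts in fl/fl, against 21 and 21 counts in wt/wt, which is 0.233 and 0 CPM against 0.943 and 0.774 CPM. A count of 0 allows up to 3 counts, or 0.171 CPM, in fl/fl 2, for counting error only. Both fl/fl libraries were lower, but at this depth the log2 fold change of −2.83 had a 95% interval of −5.74 to 0.09 (adjusted p = 0.237, edgeR). Leaving out fl/fl 2 put it at −1.85, and without fl/fl 1 the fit rests on a library at 0 and on the prior count.

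Every call among these genes in edgeR depended on both wt/wt libraries. When wt/wt 1 or wt/wt 2 was left out, no gene of any kind passed in edgeR. The fold changes of the 6 genes kept their direction: P4ha1 lay between −2.14 and −1.87 and Bnip3 between −2.64 and −2.13 in edgeR with any single library left out. Hif1a ranged from −1.35 to −1.01 and Egln1 from −1.39 to −1.02. Vhl ranged from −1.05 to −0.75. The adjusted p without wt/wt 1 and wt/wt 2 was at most 0.111 for P4ha1 and Bnip3, 0.170 for Egln3, 0.177 for Egln1, 0.182 for Hif1a and 0.196 for Vhl. DESeq2, an alternative added after the data were seen for these 3-library fits, called 5 of the 6 without either wt/wt library, all but Vhl, where it called 1.9% and 3.24% of all genes lower. Without fl/fl 1 or fl/fl 2, all 6 passed in edgeR, against 4.18% and 4.52% of all genes lower.

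**Figure D4:**
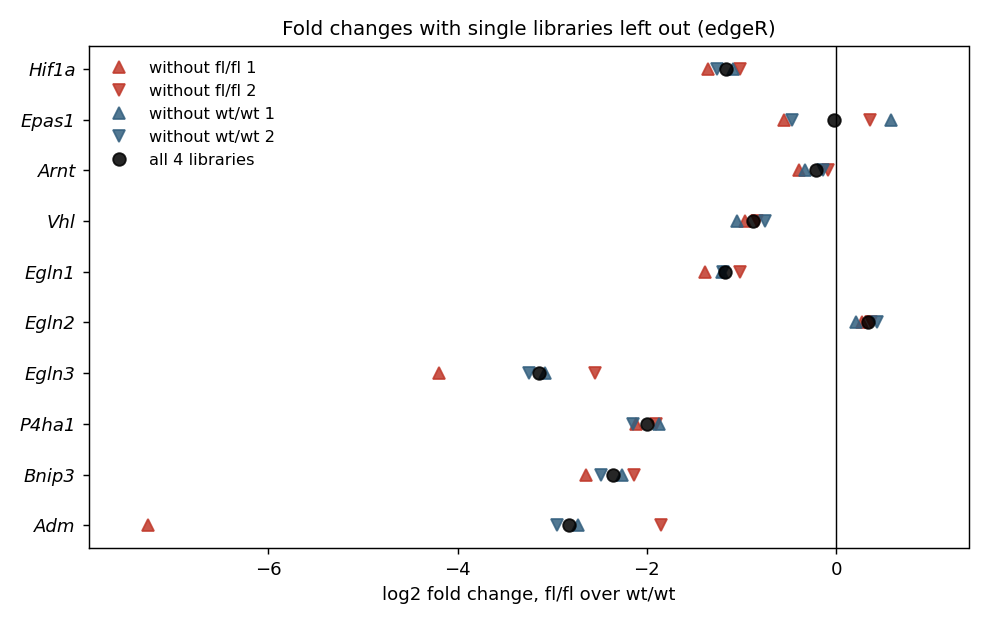
Log2 fold change of each HIF pathway gene in edgeR, fl/fl over wt/wt (horizontal axis), with all 4 libraries (black) and with single libraries left out (red for fl/fl, blue for wt/wt). Egln3 lies at −4.19 with fl/fl 1 left out and at −2.54 with fl/fl 2 left out, Epas1 lies on both sides of 0, and the value of Adm at −7.28 without fl/fl 1 rests on a library with 0 counts.

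The genes nearest in profile to each of the 6, among tested genes of at least median expression and by the same distance over 4 libraries, were the following. For Egln3 they were the transporter gene Abcc3 (distance 0.12501) and the complement genes C1qa (0.183) and C1qc (0.276). Both C1q genes are on the macrophage marker list. C1qa held 41.1 and 12.3 CPM in fl/fl, against 231 and 230 CPM in wt/wt. For P4ha1 they were Zfp395 (0.122), Sh3pxd2b (0.134) and Dapk1 (0.174), and for Bnip3 they were Uhrf1bp1 (0.102), Pde3b (0.177) and Adap2 (0.240). Those of Hif1a were Dgkz (0.055), Mef2a (0.063) and Ergic1 (0.083), those of Egln1 were Rin2 (0.089), Dok2 (0.093) and Ergic1 (0.108), and those of Vhl were Cerk (0.033), Mier2 (0.071) and Hmox1 (0.098). With 4 libraries that fall into 2 genotypes, such distances mostly state a like fold change.

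Other parts of the machinery that controls HIF did not pass. Of 19 listed genes, 16 were tested, and 0 rose and 0 fell in edgeR, with 2 lower at an unadjusted p under 0.05, which 22.5% of all tested genes reached in either direction, and 1 lower in DESeq2, which called 6.18% of all genes lower; the median log2 fold change was −0.05, against 0.02 over all tested genes. Cited2, which competes with HIF alpha for its coactivators, held 135 and 99.4 CPM in fl/fl against 240 and 169 CPM in wt/wt (log2 fold change −0.80, adjusted p = 0.101, edgeR). Usp20, a deubiquitinase, Cited4 and the chaperone gene Hsp90aa1 were at −0.78, −1.37 and −0.37. Hif1an, the asparaginyl hydroxylase that limits HIF activity, was at 0.07 and is named after its values were seen.

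On each list of other oxygen-dependent hydroxylases 1 gene fell, where 3.16% of all tested genes were lower in edgeR. Of 6 tested collagen-modifying genes, 1 fell, P4ha2, another catalytic subunit beside P4ha1. P4ha2 held 0.699 and 0.457 CPM in fl/fl, against 5.75 and 2.62 CPM in wt/wt (log2 fold change −2.84 ± 0.62, SE; adjusted p = 0.0478, edgeR), and it was not called by limma-voom, by edgeR with fl/fl 2 left out, or by DESeq2 with fl/fl 2 or either wt/wt library left out. Its log2 fold change in edgeR was −2.21 with wt/wt 1 left out. P3h3, P3h1 and Plod3 were at −2.50, −0.44 and 0.29 without passing. Of 18 tested histone demethylases and other 2-oxoglutarate oxygenases, 1 fell: Kdm3a, a hypoxia-inducible histone demethylase, which held 49.1 and 47.8 CPM in fl/fl against 116 and 98.5 CPM in wt/wt (adjusted p = 0.0186 in edgeR, at a log2 fold change of −1.14 ± 0.16, SE). Kdm5b, Alkbh5 and Kdm4b did not pass, at −0.81, −0.50 and −0.72. In edgeR with single libraries left out, the log2 fold change of Kdm3a ranged from −1.25 to −1.07. The medians of these lists were −0.34 and −0.18.

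Known hypoxia targets outside glycolysis include growth factors, chemokine signalling and heme breakdown. Of 24 tested, 9 fell, 0 rose and 15 did not pass, where 3.16% of all tested genes were lower and 2.69% higher in edgeR. Over the 24 the median log2 fold change was −1.13, with 20 values negative and 4 positive. Both fl/fl libraries lay below both wt/wt libraries for 17, against 26.3% of all tested genes. Vegfa, the vascular growth factor, held 103 and 57.8 CPM in fl/fl, against 719 and 502 CPM in wt/wt (log2 fold change −2.93 ± 0.33, SE; adjusted p = 0.0120, edgeR). Pdgfb, a platelet-derived growth factor chain, held 3.26 and 4.91 CPM in fl/fl, against 30.7 and 40.8 CPM in wt/wt (−3.13 ± 0.29, SE; adjusted p = 0.00879, edgeR). Bhlhe40, a transcriptional repressor, held 239 and 260 CPM against 836 and 719 CPM, and the chemokine receptor gene Cxcr4 held 189 and 231 CPM against 592 and 551 CPM. In each of these 4 genes the fl/fl libraries were well below wt/wt. The remaining ones that fell were Ankrd37 (−1.98), the cytokine gene Mif (−2.00), the thiol oxidase gene Ero1a (−1.29), Fam162a (−1.56) and Hmox1, the heme-degrading enzyme (−0.85). Fam162a, which encodes a mitochondrial protein, was at −2.14 with fl/fl 1 left out. In edgeR with single libraries left out, Vegfa ranged from −3.44 to −2.57 and Pdgfb from −3.45 to −2.90.

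Glucose uptake and glycolysis, a process that HIF-1 alpha promotes, gave a like count. Of 20 tested genes, 8 fell, 0 rose and 12 did not pass, where 3.16% of all tested genes were lower and 2.69% higher in edgeR. The median was −0.81, with 16 values negative and 4 positive. Pdk1, which encodes a kinase that inhibits pyruvate dehydrogenase, held 20.4 and 16.9 CPM in fl/fl, against 74.5 and 71.0 CPM in wt/wt. Its log2 fold change was −1.96 ± 0.18 (SE, with an adjusted p of 0.00879 in edgeR). The others were Aldoc (−2.62), the hexokinase gene Hk2 (−1.63), Pfkfb3, which makes an activator of glycolysis (−1.89), Tpi1 (−1.60), Pfkl (−1.56), the glucose transporter gene Slc2a1 (−1.54) and Pfkp (−0.98). With fl/fl 1 left out, Pfkl was at −2.18 and Slc2a1 at −2.14. The second glucose transporter, Slc2a3, was at 1.41 (adjusted p = 0.0827, edgeR) and is named after its values were seen.

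**Figure D5:**
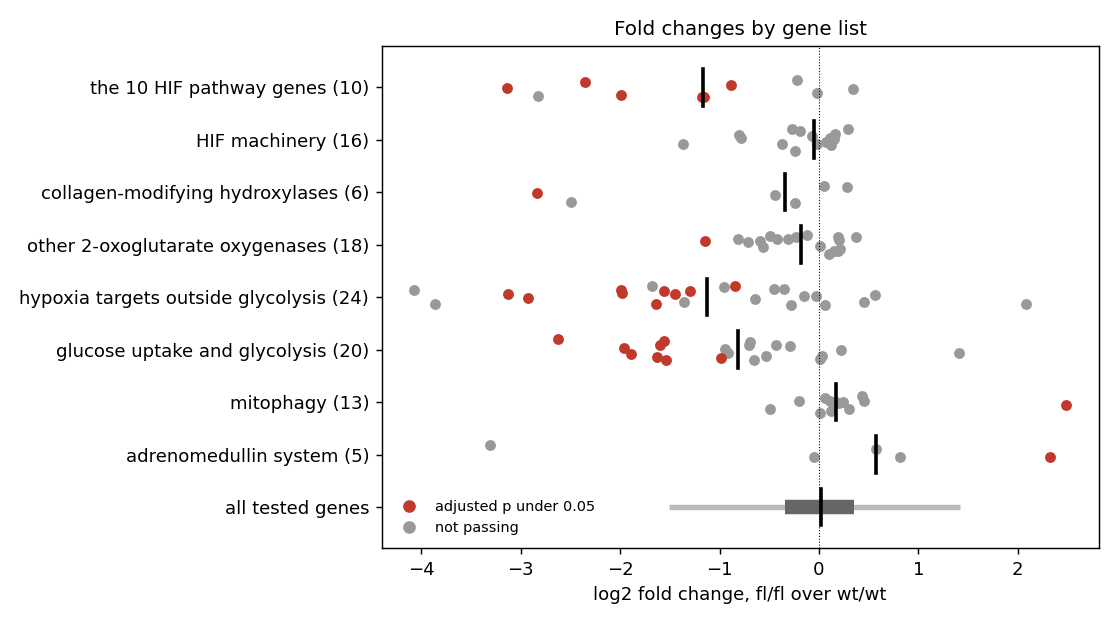
Log2 fold changes, fl/fl over wt/wt (horizontal axis), of the 10 HIF pathway genes and the tested members of 7 related lists (numbers in brackets); each point is a gene, red where the adjusted p was under 0.05 in edgeR, and black lines are medians. For all tested genes the dark bar spans the 25th to 75th percentile and the light bar the 5th to 95th, and the medians run from −1.17 for the 10 genes to 0.58 for the adrenomedullin system.

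On each of the lists around Bnip3 and Adm, 1 gene passed. Over all tested genes, 2.69% were higher and 3.16% were lower in edgeR. Of 13 tested mitophagy genes, 1 rose, 0 fell and 12 did not pass, at a median of 0.17. The one that rose was Optn, an autophagy receptor, which held 17.3 and 7.36 CPM in fl/fl against 2.34 and 2.06 CPM in wt/wt (log2 fold change 2.48 ± 0.47, SE; adjusted p = 0.0322, edgeR); limma-voom and, with fl/fl 1 left out, DESeq2 did not call it. Its log2 fold change ranged from 1.70 with fl/fl 1 left out to 2.98 with fl/fl 2 left out. Gabarapl2, Sqstm1 and Pink1 were at 0.43, −0.50 and 0.46 without passing. Of 5 tested genes of the adrenomedullin system, 1 rose: Pam, the enzyme that amidates adrenomedullin and other peptides, which held 36.9 and 17.9 CPM in fl/fl against 4.81 and 6.12 CPM in wt/wt (2.32 ± 0.38, SE; adjusted p = 0.0232, edgeR). Pam was at 1.67 with fl/fl 1 left out and still passed. The receptor genes Ramp1 and Calcrl were at 0.82 and 0.58, and the scavenger receptor gene Ackr3 at −3.31 with 0 counts in fl/fl 2, none of them passing. Between the fl/fl libraries, Optn and Pam were higher in library 1, as was the summed level of the granulocyte precursor markers, and the part of those markers was not tested.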

How the data were processed

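Liver myeloid cells were sorted and their RNA sequenced in 4 libraries. The authors deposited 1 table of raw counts per Ensembl gene, as whole numbers without normalization. The submitters' processing notes name FastQC 0.11.5, Trimmomatic 0.33, STAR 2.5.0 and GRCm38; not given in the sources used here are the counting tool, strand setting and annotation release. GENCODE M21 (GRCm38) supplied symbols, coordinates and exon lengths and named 55227 of 55487 identifiers.

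The genotype comparison was an edgeR 4.0.16 fit in R 4.3.3. Genes were kept by filterByExpr at a minimum count of 10, scaled by TMM and tested two-sided with the quasi-likelihood F test, genotype being the only term. P-values were adjusted by Benjamini-Hochberg over 13496 genes, and an adjusted p under 0.05 passes. Fold changes put fl/fl over wt/wt, at edgeR's default prior count. Dividing the absolute log2 fold change by the square root of F gave its SE, and 95% intervals use the degrees of freedom of the test. TPM divide counts by merged exon length. On simulated counts, the edgeR fit recovered 64% of log2 changes of 1 and 98% of log2 changes of 2, with 17 false calls. The changed genes were of at least median expression. The simulated spread came from the fitted dispersion alone, without sex or cell type differences, so the simulation cannot vouch for the calls here. Precision is limited by having 2 libraries a group. A library at 0 has a floor of 3 counts, which covers counting error alone because copies made by PCR count like separate molecules. Ero1a was matched as Ero1l, and of 2 identifiers named Aldoa the older was taken.

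The genes, the 7 related lists and 12 lists of cell type markers were chosen with earlier results of these data known. Named genes were the 10 genes and Il10ra; in each related list, those passing and the 4 with the smallest p; the 3 nearest profiles of each of the 10 genes that passed (log2 CPM with a prior count of 2); and the 2 most abundant genes of marker lists. Xist, the gate's markers, C1qb and genes that share exons or sequence with the 10 were named after their values were seen. Alternatives were other scalings, filters, prior count, DESeq2 1.42.0, limma-voom (limma 3.58.1), a replicate block and leaving out each library.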

Additional observations from a re-analysis of the deposited data

How the results depend on the processing

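Of the 10 HIF pathway genes, 6 were lower and 0 higher under every setting on all 4 libraries: scaling by RLE, by library size or by the upper quartile, testing without a filter or with one at a CPM of at least 1 in at least 2 libraries (which removed Adm), a prior count of 5, DESeq2, limma-voom and the replicate block. With single libraries left out the number lower ranged from 0 (edgeR without wt/wt 1 or wt/wt 2) to 6. Such fits take the lone library of a genotype to be as variable as the other genotype's pair. Genes passing in all numbered 790, against 2088 without a filter, 1618 in DESeq2, 1215 with the replicate block, 0 to 1477 with single libraries left out in edgeR and 496 to 1401 in DESeq2. The log2 fold change of Epas1 changed sign, at 0.061 in limma-voom, 0.011 with the replicate block, 0.36 in edgeR and 0.357 in DESeq2 without fl/fl 2, and 0.58 in edgeR and 0.62 in DESeq2 without wt/wt 1; with single libraries left out it ranged from −0.54 to 0.62, and the cause was not tested. The replicate numbers only name the libraries: deviations from the group means correlated at 0.0215 between same-numbered libraries, so the numbers were not taken as pairs. With the block, 6 of the 10 genes were lower, as without it. On all 4 libraries the larger list counts moved by over 1.5 times without a filter only. There 14 hypoxia targets and 13 glycolysis genes were lower in place of 9 and 8, and 4.72% of all genes were lower in place of 3.16%. List counts of 0 to 2 moved in other settings too. Depth limits Adm and Epas1, at up to 67 counts in a library.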
